A study of Mus musculus with 8 samples.

Results

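The major urinary proteins are encoded by a cluster of near-identical genes on mouse chromosome 4, and 9 of them are described here in the liver: Mup1, Mup2, Mup3, Mup7, Mup11, Mup14, Mup17, Mup20 and Mup21. The 9 were chosen by gene name as a family, with earlier results of these data known. They are 9 of the 35975 genes to which the transcripts of the table could be assigned, and 9 of the 49 genes and pseudogenes that the annotation names Mup. Liver RNA was sequenced from 4 C57BL/6 mice infused with normal saline and 4 infused with 4-HPAA (4-hydroxyphenylacetic acid, a metabolite of gut bacteria), each for 2 weeks. Every mouse, controls included, carried a catheter in the portal vein, the vessel that drains the gut into the liver, fed by an osmotic pump under the skin that delivered 0.25 µL per hour. The pumps of the 4-HPAA group held 55 mM 4-HPAA dissolved in normal saline. The mice of the study were 8 to 10 weeks old, were of both sexes and lived singly after surgery. The labels do not give the sex of each liver, but Y-linked genes were expressed in every one, as given below.

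Major urinary proteins are small secreted lipocalins, barrel-shaped carriers of hydrophobic molecules. Hepatocytes make them in bulk, the blood carries them to the kidney, and in urine they bind and slowly release volatile pheromones, so that they serve as scent signals between mice. Their transcription in liver is known to depend on pulses of growth hormone acting through its receptor and STAT5, and is usually much higher in males than in females. Mup20 encodes darcin, a male scent protein that is itself attractive to females. Mup3, Mup20 and Mup21 belong to the more divergent genes at the edge of the cluster, whereas the genes of its center are almost copies of one another.

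The coding sequences showed how alike the members are, which matters for every count below because a read from a shared stretch cannot be assigned to 1 gene. The most abundant coding transcript of each member in the GENCODE M21 annotation (GRCm38) had a coding sequence of 540 to 552 bases. Mup1, Mup2, Mup7, Mup11, Mup14 and Mup17 were identical at 98.3% to 99.4% of aligned positions over their 15 pairs, with 3 to 9 differences a pair. Mup20 was 90.1% to 91.3% identical to these 6. Mup3 was 82.3% to 83.6% identical to them and Mup21 was 83.6% to 84.7% identical, and Mup3 and Mup21 were closest to each other at 94.8%. Of the 543 coding positions of Mup11, 113 differed in at least 1 member, and only 15 differed among the 6 close members. The stretch from coding base 247 to 306 of Mup11 is shown because it is the 60-base window without gaps that held the most such positions, 20 in all. Capitals mark bases that differ from Mup11.
Mup11: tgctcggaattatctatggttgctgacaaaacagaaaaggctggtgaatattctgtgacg
Mup7: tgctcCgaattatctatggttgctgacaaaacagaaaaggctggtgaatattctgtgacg
Mup17: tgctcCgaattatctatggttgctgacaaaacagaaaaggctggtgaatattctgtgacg
Mup1: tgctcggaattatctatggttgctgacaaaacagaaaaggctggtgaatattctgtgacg
Mup20: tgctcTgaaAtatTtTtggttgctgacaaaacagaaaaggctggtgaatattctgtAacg
Mup3: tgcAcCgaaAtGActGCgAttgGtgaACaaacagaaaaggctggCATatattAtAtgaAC
Mup21: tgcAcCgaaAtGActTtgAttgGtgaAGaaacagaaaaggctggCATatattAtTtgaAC
In this window Mup2 and Mup14 had the same letters as Mup11 and Mup1. Mup7 and Mup17 each differed from Mup11 at 1 base, Mup20 at 5, Mup21 at 17 and Mup3 at 18.

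The share of sequence that belonged to 1 gene alone followed the same division. Over words of 31 bases, the default word length of the program that made the counts, 9.98% of the words of Mup7 occurred in no other gene of the table. The share was 10.8% for Mup14, 13.8% for Mup17, 16.7% for Mup11, 21.5% for Mup2 and 29.8% for Mup1. It was higher for the divergent members, at 38.1% for Mup20, 66.2% for Mup21 and 70.7% for Mup3. No word of any member occurred in a matched gene outside the Mup family. Transcripts of the table that could not be assigned to a gene were not searched. Values for the 6 close members are therefore uncertain as to which of them a read came from, and less so as to the sum of all Mup genes.

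The authors deposited estimated counts per transcript from kallisto. These were summed per gene and are given as CPM, counts scaled to library depth after TMM normalization. Total estimated counts per liver ranged from 29559978 to 30673398, and the 9 members held 1.33% to 3.89% of them. All Mup genes and pseudogenes together held 2.94% to 7.05%, so that the members made up 41.9% to 60.2% of the Mup signal of a liver. The hepatocyte marker Alb, serum albumin, stood at 73129 to 100791 CPM, and the Y-linked gene Ddx3y was present in all 8 livers at 72.1 to 89.5 CPM. The Y-linked genes Eif2s3y (43.7 to 52.0 CPM), Kdm5d (16.3 to 24.6 CPM) and Uty (14.2 to 16.9 CPM) were also present in all 8. By these genes all 8 livers were male, the 3 livers with low Mup levels described below included. These bulk values cannot tell apart fewer cells of a type and less RNA per cell.

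Across the 8 livers, 6 members were low in the same 3 livers, of which 2 had received normal saline and 1 had received 4-HPAA. Mup7, a central member and the most abundant of the 9, stood at 1219, 16323, 14665 and 1931 CPM in normal saline replicates 1 to 4 and at 12599, 18284, 15058 and 1581 CPM in 4-HPAA replicates 1 to 4. Normal saline replicates 1 and 4 and 4-HPAA replicate 4 were thus low, the other 5 livers lay within 1.45-fold of each other, and the groups overlapped. The lowest of these 5 was 6.53-fold above the highest of the 3.

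Mup1, 1 of the central members, was split in the same way. Its CPM were 70.3, 659, 729 and 82.2 with normal saline and 583, 677, 636 and 65.5 with 4-HPAA, an 11.1-fold span from the lowest to the highest liver. The ratio of Mup7 to Mup1, taken per length as TPM, which scales counts by depth and transcript length, held between 14.5 and 23.5 in all 8 livers. Of the 31-base words of Mup7, however, 71.2% also occurred in Mup1. The ratio thus rests in part on how kallisto divided reads that fit both genes.

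Mup11 had a smaller step, with 2160, 7666, 6911 and 2193 CPM under normal saline and 6446, 5776, 6249 and 2163 CPM under 4-HPAA. Its 3 low livers lay within a few percent of each other. Mup14 stood at 290, 2227, 2766 and 755 CPM with normal saline and at 1857, 2254, 2094 and 756 CPM with 4-HPAA, lowest in normal saline replicate 1.

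Mup17 varied most of the 9. It was measured at 186, 710, 1078 and 68.0 CPM under saline and at 682, 623, 860 and 37.8 CPM under 4-HPAA, a span of 28.5-fold. Here 4-HPAA replicate 4 was the lowest and normal saline replicate 1 the highest of the 3 low livers. Mup2, the least abundant member, had 27.9, 69.3, 62.1 and 24.0 CPM with normal saline and 55.7, 46.5, 65.8 and 21.2 CPM with 4-HPAA. As a gene sum its step was the smallest of the close 6. A transcript annotated as noncoding held 58.5% of the Mup2 counts and ranged only from 457 to 1162 estimated counts. The main coding transcript had a larger step, with 168, 1204, 692 and 84.5 estimated counts under normal saline. Under 4-HPAA it had 621, 451, 1061 and 102.

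The 3 divergent members behaved differently from these 6 and from each other. Mup3 was also lowest in the same 3 livers, but by little: its CPM were 5460, 6955, 7397 and 4143 with normal saline and 7931, 6894, 7759 and 4854 with 4-HPAA, a span of 1.91-fold. Mup20, the darcin gene, was measured at 3625, 4421, 5355 and 4971 CPM with normal saline and 4878, 3982, 5216 and 7366 CPM with 4-HPAA. Its highest liver was 4-HPAA replicate 4, in which Mup1, Mup2 and Mup17 were at their lowest. Mup21 had 36.6, 100.2, 164 and 87.5 CPM with normal saline and 83.5, 138, 118 and 158 CPM with 4-HPAA. It was low in normal saline replicate 1 alone and near its highest in 4-HPAA replicate 4.

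**Figure D1:**
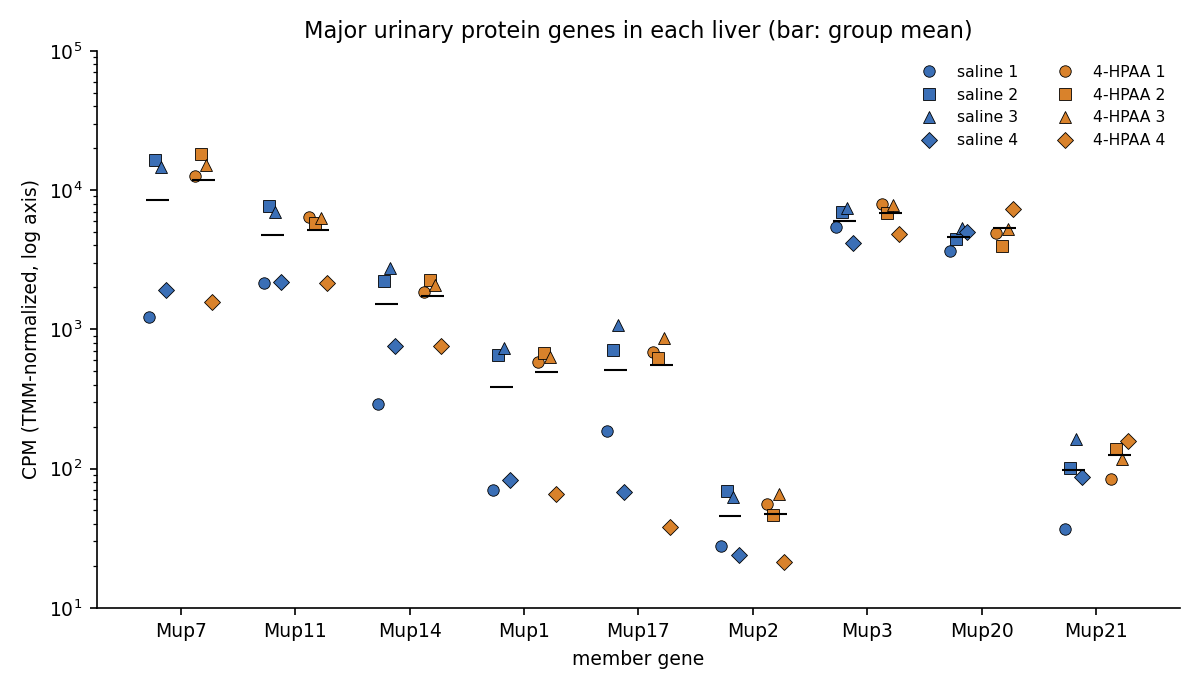
CPM of each member (log axis) in the 4 normal saline livers (blue) and the 4 4-HPAA livers (orange), with a symbol for each replicate number and a bar at each group mean. Normal saline replicates 1 and 4 and 4-HPAA replicate 4 lie below the other 5 livers for Mup7, Mup11, Mup14, Mup1, Mup17, Mup2 and, by less, Mup3, and the groups overlap for all 9 genes.

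The sum of the 6 close members does not depend on how reads were divided among them, though it does on reads shared with other Mup genes. Their sum was 3954, 27655, 26212 and 5053 CPM in normal saline replicates 1 to 4 and 22222, 27660, 24963 and 4624 CPM in 4-HPAA replicates 1 to 4, a 6.99-fold span. The sum of Mup3, Mup20 and Mup21 spanned only 1.43-fold, from 9121 to 13093 CPM. The 2 sums were formed with the values in view and are a description, with no test. The total of all annotated Mup genes and pseudogenes does not depend on the division of reads among them. It was 3.17%, 6.49%, 7.05% and 2.94% of the counts of the normal saline livers. In the 4-HPAA livers it was 6.34%, 6.45%, 6.68% and 2.95%. The 3 low livers were again the same.

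In 7 of the 9 members the 3 lowest livers were the same 3 as those of Mup7, Mup7 itself included. Of all 12883 genes tested, 6.04% had these 3 livers lowest. The 3 livers were singled out from the Mup values, so the count is a description of the family and was not tested. As a measure over the whole table, the standard deviation of log2 CPM within groups put Mup17 at rank 5 of the 12883 genes (1.98), Mup7 at rank 8 (1.80) and Mup1 at rank 9 (1.74). The median gene had 0.167. Mup3, at 0.355, and Mup20, at 0.314, were much closer to it.

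The make-up of the member transcripts differed between the same livers. Mup7 held 9.30% to 13.5% of the counts of the 9 members in the 3 low livers and 35.9% to 47.3% in the other 5. Mup20 held 27.7%, 34.9% and 43.3% in normal saline replicates 1 and 4 and 4-HPAA replicate 4, against 10.3% to 13.9% elsewhere. By TPM, Mup7 was the highest member in 5 livers, Mup3 in normal saline replicate 1, and Mup20 in normal saline replicate 4 and 4-HPAA replicate 4. The TPM ratio of Mup7 to Mup20 was 0.342 and 0.393 in the 2 low normal saline livers, 0.218 in the low 4-HPAA liver and 2.61 to 4.65 in the rest.

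**Figure D2:**
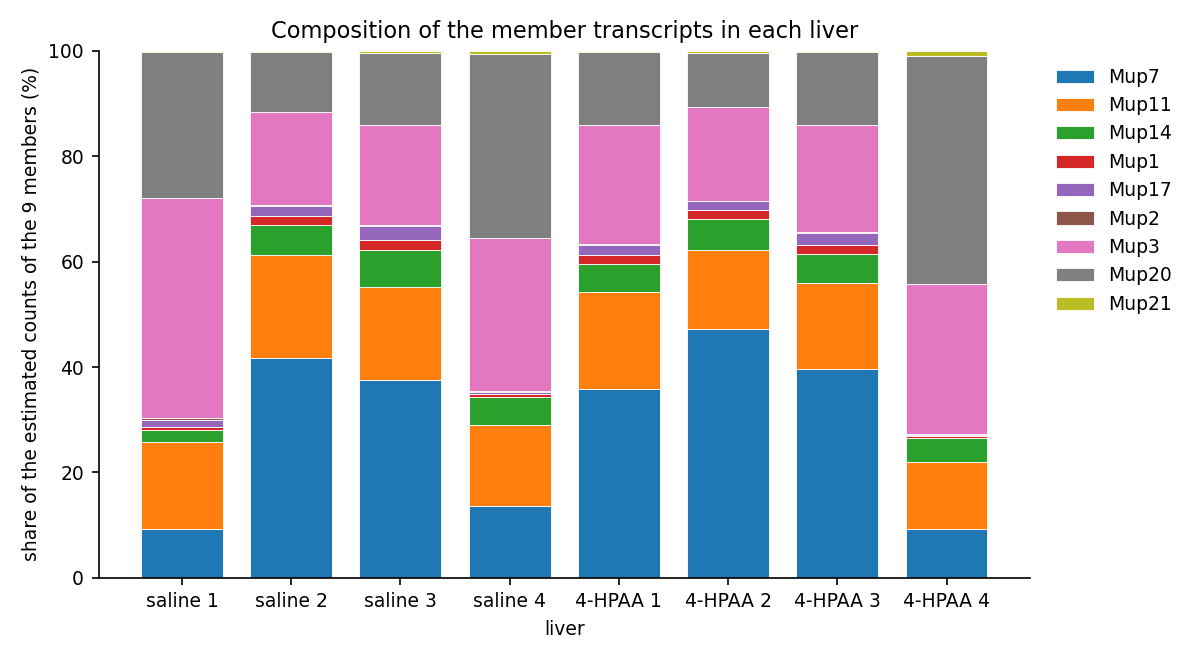
Share of the estimated counts of the 9 members held by each of them (stacked bars, %, 1 bar per liver). In normal saline replicates 1 and 4 and 4-HPAA replicate 4 the shares of Mup20 (27.7% to 43.3%) and Mup3 are larger and that of Mup7 (9.30% to 13.5%) smaller than in the other 5 livers.

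Ordered by median TPM over the 8 livers, the members ran from Mup7 (23866) through Mup3 (12246), Mup11 (10773), Mup20 (8405), Mup14 (4534), Mup1 (1231), Mup17 (1138) and Mup21 (265) to Mup2 (104). The ranges of neighbors in this order overlapped at every step except between Mup20 and Mup14. Mup20 did not go below 6653 TPM and Mup14 did not exceed 6583 TPM.

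The comparison the design was made for asked whether infusion of 4-HPAA changed the level of these genes. All 9 members had at least 10 counts in every liver and were tested by edgeR's quasi-likelihood test across 12883 genes. None of the 9 passed at an adjusted p of 0.05 (Benjamini-Hochberg), where 0% of all genes tested did. At an unadjusted p of 0.05, 0 of 9 passed, against 1.75% of all genes. The groups overlapped for each member, while 1.2% of all genes did not overlap. DESeq2 and limma-voom also called 0 of the 9.

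The largest fitted difference was that of Mup7, whose mean was 8534 ± 8070 CPM (SD, n = 4) under saline and 11880 ± 7250 CPM (SD, n = 4) under 4-HPAA. Its log2 fold change was 0.48 (SE 0.87, 95% confidence interval -1.47 to 2.42, adjusted p = 1.00 by edgeR). The interval includes both large increases and large decreases. Mup20 had the narrowest interval, with means of 4593 ± 751 CPM under saline and 5360 ± 1435 CPM under 4-HPAA (SD, n = 4 each), a log2 fold change of 0.22 (SE 0.20, interval -0.21 to 0.66, adjusted p = 1.00 by edgeR). Mup3 had the next narrowest, at 0.20 (SE 0.21, interval -0.28 to 0.67, adjusted p = 1.00 by edgeR).

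For the other 6 members the log2 fold change was 0.36 for Mup21 (SE 0.37), 0.35 for Mup1 (SE 0.84), 0.20 for Mup14 (SE 0.60), 0.12 for Mup11 (SE 0.48), 0.11 for Mup17 (SE 0.90) and 0.05 for Mup2 (SE 0.40). All 9 values were above 0, as were 50.4% of all genes. The members share reads and livers, so the common sign is 1 observation and not 9. Of the 3 low livers 2 were in the normal saline group. Without those 3, in a fit added after the data were seen, the log2 fold changes of 8 members fell below 0, from -0.01 for Mup7 to -0.30 for Mup17, and that of Mup3 was 0.07.

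Replacing the 9 members by their sum gave 13076, 39133, 39135 and 14253 CPM in normal saline replicates 1 to 4 and 35117, 38669, 38056 and 17000 CPM in 4-HPAA replicates 1 to 4. The means were 26399 ± 14713 CPM (SD, n = 4) and 32210 ± 10258 CPM (SD, n = 4). The log2 fold change of the sum was 0.29 (SE 0.41, 95% interval -0.63 to 1.20), below the within-group SD of 0.740 on the log2 scale. It was -0.07 without the 3 low livers, 0.06 without normal saline replicate 1 and 0.09 without normal saline replicate 4. The interval thus included 0, and the smallest difference that could be detected with this spread was not computed.

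**Figure D3:**
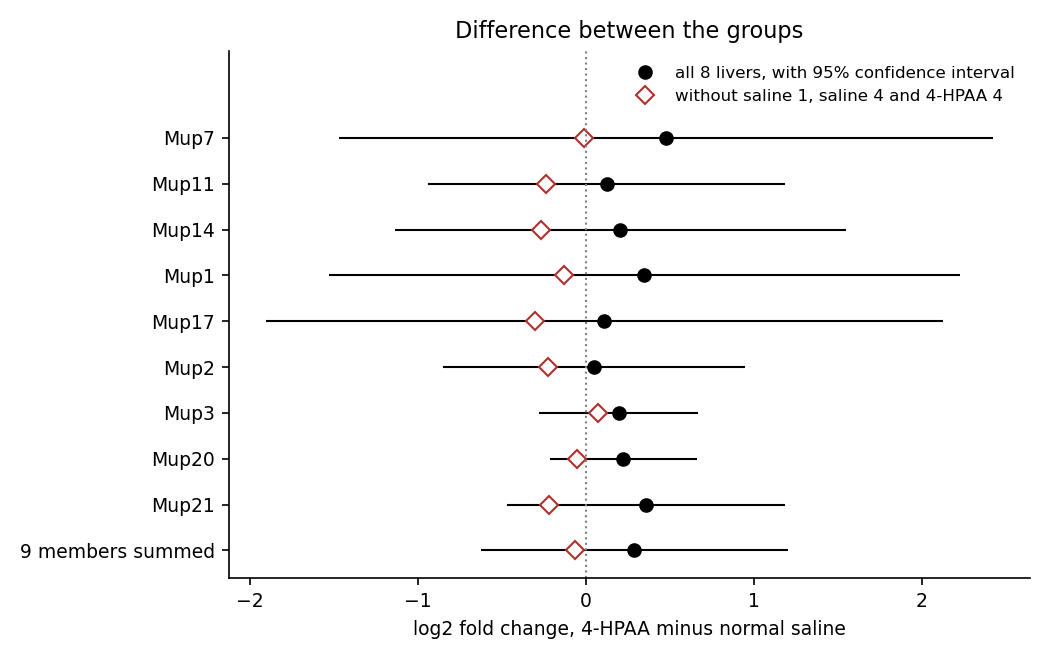
Log2 fold change of 4-HPAA minus normal saline for each member and for the sum of the 9 (black points, all 8 livers, with 95% confidence intervals), and the value without normal saline replicates 1 and 4 and 4-HPAA replicate 4 (open diamonds). Every interval spans 0, and the diamonds lie between -0.30 and 0.07.

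All 9 members lie on the minus strand of chromosome 4 (GRCm38), in a cluster of 48 Mup genes and pseudogenes from 59956804 to 62150863. From the low-coordinate end, Mup7 lies at 60066469 to 60070475, Mup2 at 60135932 to 60154289, Mup1 at 60498012 to 60501960, Mup11 at 60658466 to 60662411, Mup14 at 61300023 to 61304000, Mup17 at 61591929 to 61595871, Mup20 at 62050234 to 62054158, Mup3 at 62083476 to 62087342 and Mup21 at 62147932 to 62150863. The 6 close members thus occupied the body of the cluster and the 3 divergent ones its high-coordinate end.

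Most genes on either side of the cluster varied far less. Of the other genes within 2 Mb of the cluster, 18 had a mean of at least 10 CPM, and their median ratio of highest to lowest liver was 1.32. The largest of these ratios was 3.64, for Orm2, which encodes the acute-phase lipocalin orosomucoid 2 and was lowest in the same 3 livers. Below that mean, which was not required of the Mup genes, Orm3 (mean 2.69 CPM) had a ratio of 11.2. Of all 33 tested neighbors, 6 had the same 3 livers lowest, beside 6.04% of all genes. They were Inip, Slc31a2, Prpf4, Orm3, Orm2 and Akna. Among the members the ratio ran from 1.91 for Mup3 to 28.5 for Mup17.

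The Mup genes outside the 9 showed the same division. Of 40, 23 had a mean of at least 10 counts and 16 were tested. Of these 16, 11 had a log2 fold change above 0 and 5 below, between -0.16 and 0.42. The same 3 livers were lowest in 10 of the 16, beside 6.04% of all genes. Mup22, the most abundant of them, was at 9524, 14871, 17159 and 10828 CPM with normal saline and 17180, 13871, 15093 and 9728 CPM with 4-HPAA. Mup19 was at 4364, 7126, 8190 and 1416 CPM and at 6899, 6522, 6621 and 913 CPM, and was therefore far lower in normal saline replicate 4 and 4-HPAA replicate 4 than elsewhere. Mup15 had 143, 441, 695 and 35.4 CPM and 441, 503, 591 and 23.4 CPM, a steep pattern like that of Mup17.

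Other genes of the cluster did not follow it. Mup10 held between 148 and 227 CPM in all 8 livers, and Mup18 between 2592 and 5337 CPM, with a different set of lowest livers. Mup12, with 13.3, 140, 161 and 12.1 CPM under normal saline and 124, 178, 123 and 13.2 CPM under 4-HPAA, had the step of Mup7 and Mup1 at a low level. Mup8, Mup9 and Mup16 were also lowest in the 3 livers, with spans from 3.76-fold for Mup16 to 7.78-fold for Mup9.

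**Figure D4:**
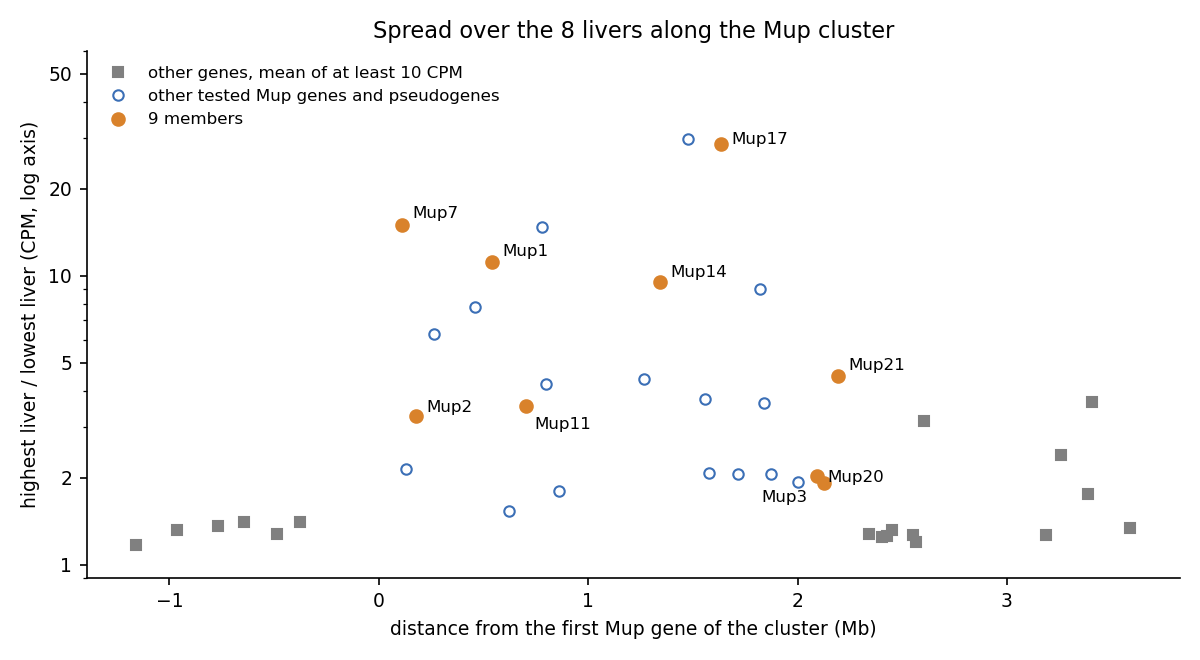
Ratio of the highest to the lowest liver (CPM, log axis) against distance in Mb from the first Mup gene of the cluster, for the 9 members (filled circles), the 16 other tested Mup genes and pseudogenes (open circles) and 18 other genes with a mean of at least 10 CPM (squares). Mup17 (28.5), Mup7 (15.0) and Mup1 (11.1) stand far above these flanking genes, whose median ratio is 1.32, whereas Mup3 (1.91) lies close to them. The flanking gene Orm3 (11.2), with a mean under 10 CPM, is not shown.

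Upstream sequence from RefSeq (GRCm38.p6) was available for 7 of the 9 members, with Mup1 and Mup20 not among them. TATATAAG, an 8-base TATA element, occurred on either strand within 250 bases before the annotated start in Mup2, Mup3, Mup17 and Mup21, which is 4 of 7, against 0.935% of 32851 such windows. The 80 bases that end with this element are shown because they set Mup2 and Mup17, which had the step, beside Mup3 and Mup21, which had little or none. Capitals mark the element and all 4 are read from the minus strand.
Mup2, chr4:60139876-60139955: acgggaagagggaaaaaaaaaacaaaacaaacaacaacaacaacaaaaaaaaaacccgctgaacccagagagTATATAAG
Mup17, chr4:61595850-61595929: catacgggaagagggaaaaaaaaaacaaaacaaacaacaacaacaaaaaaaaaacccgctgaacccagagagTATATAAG
Mup3, chr4:62087321-62087400: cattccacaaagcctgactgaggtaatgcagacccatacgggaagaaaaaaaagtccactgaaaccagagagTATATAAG
Mup21, chr4:62150842-62150921: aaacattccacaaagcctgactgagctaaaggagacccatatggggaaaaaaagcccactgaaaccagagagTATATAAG
Over these stretches Mup2 and Mup17 were 92.8% identical and Mup3 and Mup21 were 85.5% identical, while the pairs across were 55% to 60.7% identical. The element began 27 bases before the annotated start in Mup2, 25 in Mup17, 11 in Mup3 and 8 in Mup21, which also reflects where the annotation places each start. TATAAA, which shares its first 5 letters with part of the element, was found in 0 of the 7 members and 12.4% of all windows. The STAT-type letters TTCNNNGAA were found in 0 of the 7 and in 7.02% of all windows, and TTGCNNAA, a CCAAT/enhancer-type sequence, in 0 of the 7 and in 9.56%. Only the 250 bases before each annotated start were searched, so all these counts depend on where the annotation places that start. In the 4 members shown, the element lies inside the gene span given above. The start used for Mup7, 60070475, is the end of its span, so bases inside that span were not searched. These matches describe letters in the windows and no binding was measured.

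The growth hormone pathway and the liver factors known to act on Mup genes were measured in the same livers. Of 34 listed genes 33 were tested, 17 had a log2 fold change above 0 and 16 below, and 0 passed by edgeR after adjustment. The genes Foxa2, a hepatocyte transcription factor, and Cux2, a female-biased repressor, were the 2 of 33 with an unadjusted p under 0.05, beside 1.75% of all genes. Ghr, the growth hormone receptor, stood at 424, 481, 554 and 456 CPM with normal saline and 508, 553, 484 and 426 CPM with 4-HPAA. It was lowest in the same 3 livers as Mup7, but over a span far narrower than that of Mup7.

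Further down the pathway the levels did not separate those livers. Stat5b, which carries the growth hormone signal to the nucleus, ranged from 36.9 to 53.1 CPM and Jak2, the kinase bound to the receptor, from 12.4 to 20.7 CPM. Cish, a feedback inhibitor induced by STAT5, varied widely at 11.2, 37.7, 12.2 and 11.4 CPM under saline and 33.8, 7.37, 39.6 and 27.5 CPM under 4-HPAA. Normal saline replicates 1 and 4 were among its low livers, as they were for Mup7, but its lowest was 4-HPAA replicate 2 and 4-HPAA replicate 4 was not among them. Igf1, the main hormone that liver releases in response to growth hormone, held between 509 and 700 CPM. Zhx2, a factor needed for full Mup expression, lay between 12.7 and 16.1 CPM, and Hnf4a between 512 and 684 CPM.

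Several male-biased liver genes had the same low livers as the central members. Of 29 listed, 27 were tested, 18 had a log2 fold change above 0 and 9 below, and 0 passed. In 6 of the 27, namely Fitm1, Nat8, Susd4, Cyp7b1, Slco1a1 and Cyp2d9, the 3 lowest livers were those of Mup7, beside the 6.04% of all genes given above. Cyp7b1, a bile acid and oxysterol hydroxylase, was at 67.2, 202, 237 and 131 CPM with normal saline and 163, 212, 169 and 128 CPM with 4-HPAA. Cyp2d9, a testosterone hydroxylase, was at 700, 1156, 1286 and 585 CPM and at 1178, 1209, 1190 and 1014 CPM. Elovl3, a fatty acid elongase, had 33.1, 48.0, 52.6 and 17.8 CPM and 22.7, 34.9, 60.9 and 47.5 CPM, and did not follow the pattern.

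Among 30 female-biased genes only 18 had the counts to be tested, of which 2 had a log2 fold change above 0 and 16 below, with a median of -0.35 (all genes 0.00), and 0 passed. At an unadjusted p under 0.05 there were 2 of 18, Cux2 and Slc22a26, an organic anion transporter family member, beside 1.75% of all genes. In 9 of the 18 the highest liver was normal saline replicate 1. The share of all tested genes highest in that liver was not computed, so the count cannot be read as particular to this list. Cyp2a4, a female-biased steroid hydroxylase with a near-identical paralog, was at 28.2 and 275 CPM in normal saline replicates 1 and 4, at 32.3 CPM in 4-HPAA replicate 4, and between 0.558 and 3.56 CPM in the other 5 livers. Its 3 highest livers were the 3 in which Mup7 was lowest, which was also so for Fmo4 and Abcd2, making 3 of 18, beside 4.7% of all genes tested. Cux2 was high in normal saline replicate 1 (14.1 CPM) and replicate 4 (6.15 CPM) and between 2.03 and 3.04 CPM elsewhere, the low 4-HPAA liver included. The defining female genes Cyp2b13, Cyp3a41a, Sult3a1 and A1bg did not exceed 0.353 CPM in any liver.

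**Figure D5:**
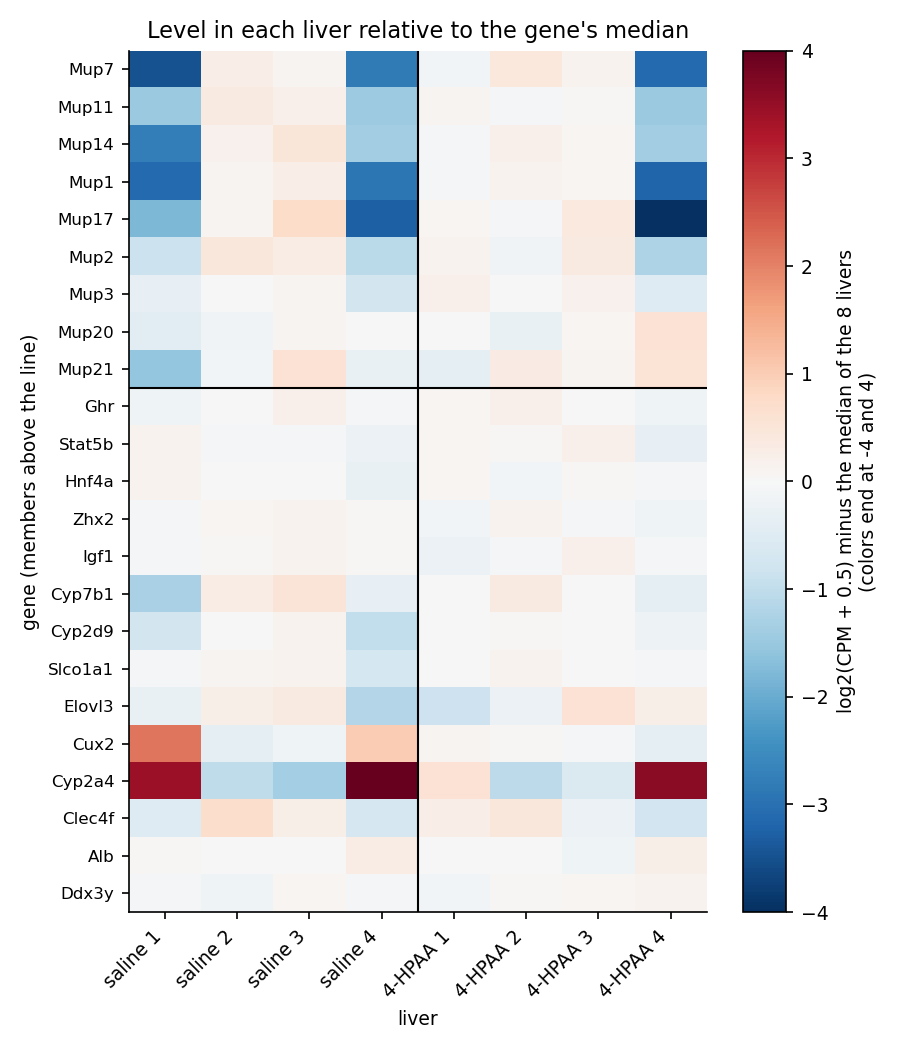
Level of the 9 members (above the line) and of named pathway, sex-biased and marker genes (below) in each liver, as log2(CPM + 0.5) minus the median of the 8 livers. The blue cells of Mup7, Mup1 and Mup17 fall in normal saline replicates 1 and 4 and 4-HPAA replicate 4, where Cyp2a4 is highest, while Stat5b, Hnf4a, Zhx2, Igf1 and Ddx3y hold near their medians.

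Markers of other cells were compared in the same livers. Of 12 Kupffer cell and leukocyte markers 10 were tested. In 6 of them, Adgre1, Clec4f, Cd5l, Csf1r, Vsig4 and Timd4, the same 3 livers were lowest, beside 6.04% of all genes. The summed level of all 12 ranged from 92.1 to 294 CPM with normal saline and from 82.8 to 244 CPM with 4-HPAA, and no marker of the list was at 0 in all livers. The 3 lowest sums were 109 and 92.1 CPM in normal saline replicates 1 and 4 and 82.8 CPM in 4-HPAA replicate 4. The part of these cells in the Mup levels was not tested. The summed endothelial markers ranged from 101 to 167 CPM and the 6 stellate cell markers from 94.8 to 191 CPM, each with normal saline replicates 2 and 4 and 4-HPAA replicate 4 lowest. Hepatocyte markers summed to 108227 to 137363 CPM, and 3 of the 9, Alb, Apoa1 and Tat, were highest in the 3 livers in which Mup7 was lowest, beside the same 4.7% of all genes. The other 6 had other livers highest, and Serpina1c and Hnf4a were low in normal saline replicate 4 and 4-HPAA replicate 4.

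The other lipocalins of the liver gave no common direction. Of 14 listed, 9 were tested, 5 had a log2 fold change above 0 and 4 below, and 0 passed. Orm3 had the lowest values in the same 3 livers (0.560 to 2.24 CPM, against 2.39 to 6.29 CPM in the rest), as did Orm2. Lcn2, an acute-phase lipocalin, was at 17.6 CPM in normal saline replicate 1 and between 3.67 and 6.98 CPM in the other 7 livers. Of the receptors that take up lipocalins, Lrp2 (megalin) was at 0.481 to 1.54 CPM and Lmbr1l at 14.8 to 23.7 CPM.

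Among the 12858 tested genes outside the Mup family, the 5 whose log2 CPM were most like that of the family sum over the 8 livers were Sin3a, Ifnar1, Pomt1, Ddx60 and Unc5a. Pearson's r ran from 0.969 for Unc5a to 0.982 for Sin3a and Spearman's rho from 0.714 for Ifnar1 to 0.905 for Pomt1 and Ddx60. These are measures of likeness only, without a test, because the livers fell into separate clusters by Mup level and the points share libraries. All 5 were lowest in the same 3 livers. Sin3a, a subunit of a histone deacetylase complex, spanned only 1.20-fold (20.6 to 24.6 CPM), and Ddx60, an interferon-induced helicase, 2.06-fold (3.01 to 6.20 CPM). Likeness in shape thus came with far smaller differences than those of Mup7, Mup1 and Mup17.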

How the data were processed

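Per the labels and the study's methods, mRNA libraries from liver RNA were sequenced as paired-end reads, checked with FastQC 0.11.9, and quantified by the authors with kallisto. They deposited 1 table of estimated counts (expected counts) per transcript and liver, not normalized and not pooled. The labels name GRCm38.p6, and the transcripts carry Ensembl identifiers. Kallisto divides a read that fits several transcripts among them, which affects near-identical paralogs most. Here 116728 of 119414 transcripts were matched to 35975 genes of GENCODE M21, summed per gene and rounded. The other 2686 transcripts held at most 1.06% of a library.

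The 12883 genes that reached 10 counts in all 8 livers entered edgeR 4.0.16 in R 4.3.3 (TMM, quasi-likelihood F test, Benjamini-Hochberg, threshold 0.05). Confidence intervals are at 95%. CPM are TMM-normalized, TPM use annotated transcript lengths. In counts simulated for this comparison (12635 genes), edgeR found 77 of 100 genes changed 2-fold and 96 of 100 changed 4-fold, with 9 false calls. The changed genes were drawn at random from all genes, so these rates do not hold for the members. The within-group SD of log2 CPM was 0.314 to 1.98 for the members and 0.167 for the median gene. Alternatives used DESeq2 1.42.0, limma-voom (limma 3.58.1), other scalings and filters, libraries left out, a replicate block and single transcripts. Coding sequences were aligned globally with Biopython 1.88.

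The members and gene lists were chosen with earlier results of these data known. The named genes are the 9 members, other Mup genes with a mean of at least 10 counts, the 5 genes most like the family sum, and from each list fixed genes and those with the 3 largest absolute log2 fold changes. Genes named for having the same 3 lowest or highest livers were chosen after their values were seen. The methods describe RNA from livers of individual mice, and the labels number the samples of a group 1 to 4 and give no further origin.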

Additional observations from a re-analysis of the deposited data

Results flagged for a closer look

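Of 56 groups of 4 livers examined for a single value far from the other 3 (Dixon's test, which flags about 1 group in 20 by chance), 8 held one. In 4-HPAA replicate 4, Mup1 stood at 65.5 CPM beside 583 to 677 CPM in the other 3 livers of its group, Mup11 at 2163 CPM beside 5776 to 6446 CPM, and the sum of the 9 members at 17000 CPM beside 35117 to 38669 CPM. As a share of the 9 members, Mup1 held 0.386% in that liver beside 1.66% to 1.75%, Mup20 held 43.3% beside 10.3% to 13.9%, and Mup21 held 0.931% beside 0.238% to 0.356%. The normal saline group was not singled out for these genes because 2 of its 4 livers were low.

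The summed red blood cell markers were 2560 CPM in normal saline replicate 2 beside 247 to 376 CPM in its group, and 734 CPM in 4-HPAA replicate 4 beside 152 to 163 CPM. The first of these livers had high Mup7 and the second low Mup7. The part of blood RNA in the Mup levels was not tested.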

How the results depend on the processing

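Over all genes, edgeR called 0 of 12883, and DESeq2 called 2 genes and the fit with 1 library left out 0 to 1 genes (1 without 4-HPAA replicate 1); none of these was a Mup member. The log2 fold change of the family sum was 0.29, between 0.19 and 0.40 under the other scalings, filters, tools and sums, and between 0.06 and 0.54 as single libraries were left out. With the replicate block it was 0.40, with 0 genes called and no call changed. Same-numbered livers deviated together with correlations of 0.04, 0.17, 0.27 and 0.48, beside a mean of -0.08 over the other pairs. Of the 8 livers, 4 correlated best with their own number. These values do not settle whether the numbers pair the livers. The labels and methods name no pairing, and the main fit used no block. No member passed in any of 180 alternative values (left-out libraries, each scaling or filter, DESeq2, limma-voom and single transcripts, lowest adjusted p 0.999, and the two-sided exact permutation test, lowest unadjusted p 0.429, where 0.0286 is the smallest it can give), and the direction held in 160. With 1 library left out it turned for 4 members, whose values ranged from -0.12 to 0.46 for Mup11, -0.14 to 0.67 for Mup14, -0.26 to 0.78 for Mup17 and -0.17 to 0.32 for Mup2. Without normal saline replicates 1 and 4 and 4-HPAA replicate 4 it turned for 8 members (Mup1 -0.13, Mup2 -0.23, Mup7 -0.014, Mup11 -0.24, Mup14 -0.27, Mup17 -0.30, Mup20 -0.055, Mup21 -0.22), and the family sum was -0.07. The spread between livers, not depth, limited these values, since the least counted member had 606 counts in its lowest liver.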
